A study of Mus musculus with 34 samples.

Results

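8 nuclear genes of the mitochondrial respiratory chain were followed in the diaphragm and hindlimb muscle of mice: Ndufb3, Ndufb7, Ndufv1 and Ndufv2 of complex I, Uqcrc1 and Uqcrc2 of complex III, Cox4i1 of complex IV, and Cycs, which encodes cytochrome c. They were taken by symbol from the probes annotated with exactly 1 gene, and are 8 of the 637 genes so named in the table of untreated mice and of the 638 in the table of L-arginine-treated mice. Ndufv1 had 2 probes in each table and the others 1, so that 9 of 1200 probes per table belonged to the set. All 8 genes had values on enough arrays (75% or more) to be tested.

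The study asked how treatment with L-arginine, the substrate of the nitric oxide synthases, acts on the muscles of mdx mice, a model of X-linked muscular dystrophy that lacks dystrophin, with BL10 mice as the strain for comparison. Total RNA was hybridised to 34 2-colour arrays in 8 groups: diaphragm and hindlimb, each from BL10 and mdx mice, each untreated or treated with L-arginine. Every group had 1 array at 3, 5, 9 and 12 weeks of age, 4 in all, except that the untreated mdx groups had 5 because a Sample 1 and a Sample 2 were labelled at 12 weeks. The dose, route and duration of the treatment and the sex of the mice were not given in the labels.

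Each deposited value is a ratio of the channels of 1 array. The labels name a strain and 12 weeks for channel 1, and the same strain and the sample's age for channel 2, so the ratio was read as the named sample over a 12-week RNA of the same strain. The 12-week arrays carry 12 weeks in both channel labels, and the labels do not say if the 12-week RNA of the L-arginine arrays came from treated mice. The channel order makes this direction likely without settling it. Between strains, pairs of untreated arrays had Spearman correlations over probes from -0.41 to 0.31, against -0.16 to 0.59 within a strain. Pairs of L-arginine arrays ran from -0.07 to 0.57 between strains and from -0.08 to 0.63 within a strain. With the ratio turned on all arrays, every direction given here turns with it. If it were turned on only some arrays, differences between these and the others would change in size too. One array, titled as L-arginine BL10 hindlimb of 9 weeks, has mdx as the strain of both channels; its title decided its group. No label says whether each array stands for an animal of its own, and p-values therefore cover the spread among arrays, which may be technical. Apart from Sample 1 and Sample 2, the arrays of a group differ in age, and the ages serve as replicates. The SD of a group therefore includes differences between ages. The spread used by the tests includes age changes that differ between groups. Because whole muscle was measured, fewer cells of a type and less RNA per cell cannot be told apart.

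The respiratory chain of the inner mitochondrial membrane passes electrons from NADH and succinate to oxygen and pumps protons that drive ATP synthase. Complex I oxidises NADH, complex III passes electrons from ubiquinol to cytochrome c, and complex IV hands them to oxygen. Most subunits are encoded in the nucleus, and oxidative muscle fibres, of which the diaphragm holds many, are rich in them. NRF-1, GABP (also called NRF-2) and CREB are transcription factors known to act on promoters of nuclear respiratory genes.

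The promoters of the set were searched for the motifs of these and of YY1 and Sp1, to see which letters the members share. RefSeq windows of the 250 bases before the gene start (GRCm38.p6) were at hand for 6 of the 8 genes: Cycs, Ndufb3, Ndufb7, Ndufv1, Ndufv2 and Uqcrc1. The windows of Cycs (minus strand, chr6:50566570-50566819), Ndufv2 (minus strand, chr17:66101560-66101809) and Ndufb7 (plus strand, chr8:83566508-83566757) are shown because they were the ones with a match, in capitals, 5′ to 3′ along the gene.
Cycs: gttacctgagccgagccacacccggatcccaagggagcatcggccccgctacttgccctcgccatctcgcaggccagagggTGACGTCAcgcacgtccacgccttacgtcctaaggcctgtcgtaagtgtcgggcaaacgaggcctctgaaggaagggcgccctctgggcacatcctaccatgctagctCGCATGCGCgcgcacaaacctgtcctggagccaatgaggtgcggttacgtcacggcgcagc
Ndufv2: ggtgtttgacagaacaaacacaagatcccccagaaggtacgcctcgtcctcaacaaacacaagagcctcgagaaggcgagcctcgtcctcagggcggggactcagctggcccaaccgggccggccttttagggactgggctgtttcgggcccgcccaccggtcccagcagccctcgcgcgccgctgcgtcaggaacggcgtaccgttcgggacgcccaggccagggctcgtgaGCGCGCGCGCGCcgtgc
Ndufb7: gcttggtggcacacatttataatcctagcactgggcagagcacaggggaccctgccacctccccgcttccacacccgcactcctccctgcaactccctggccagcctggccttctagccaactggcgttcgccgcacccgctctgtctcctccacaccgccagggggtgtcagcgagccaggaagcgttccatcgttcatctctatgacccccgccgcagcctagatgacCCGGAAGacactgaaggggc
Motifs were searched on both strands. The NRF-1 core CGCATGCG lay in Cycs, 61 to 54 bases before the start, and in 1.55% of all 32851 windows. Its looser form GCGCNNGCG overlapped that match in Cycs and lay at 4 overlapping positions in the GC repeat of Ndufv2; 9.89% of windows held it. The CREB motif TGACGTCA also lay in Cycs, 169 to 162 bases before the start, and in 1.55% of windows. The GABP motif CCGGAAG lay in Ndufb7, 20 to 14 bases before the start, with the core CGGAAG inside it; 6.91% and 13.6% of windows held them. The YY1 motif AAGATGGCG, its core ATGGCGG and the Sp1 motif GGGGCGGGG lay in 0 of the 6 windows, against 0.606%, 2.21% and 10.4% of all windows. No motif lay in more than 2 of the 6, and the matches describe letters, not binding.

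Of the untreated arrays, 3 had over 100 values of 0 or below among their 1200: BL10 diaphragm at 3 weeks and BL10 hindlimb at 3 and 12 weeks. All other arrays had at most 53. Such values have no logarithm and were left out, which removed Ndufb3 from both of these hindlimb arrays, and Ndufv2 and the second Ndufv1 probe from the 12-week one. Array medians ran from a ratio of 0.73 to 1.08 untreated and from 0.94 to 1.22 with L-arginine. Every L-arginine array is in 1 table and every untreated array in another, made on another platform, and the effects of treatment and of table cannot be told apart. Since only ratios were deposited, muscle markers could not be used as levels to check the labelled tissues.

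**Figure D1:**
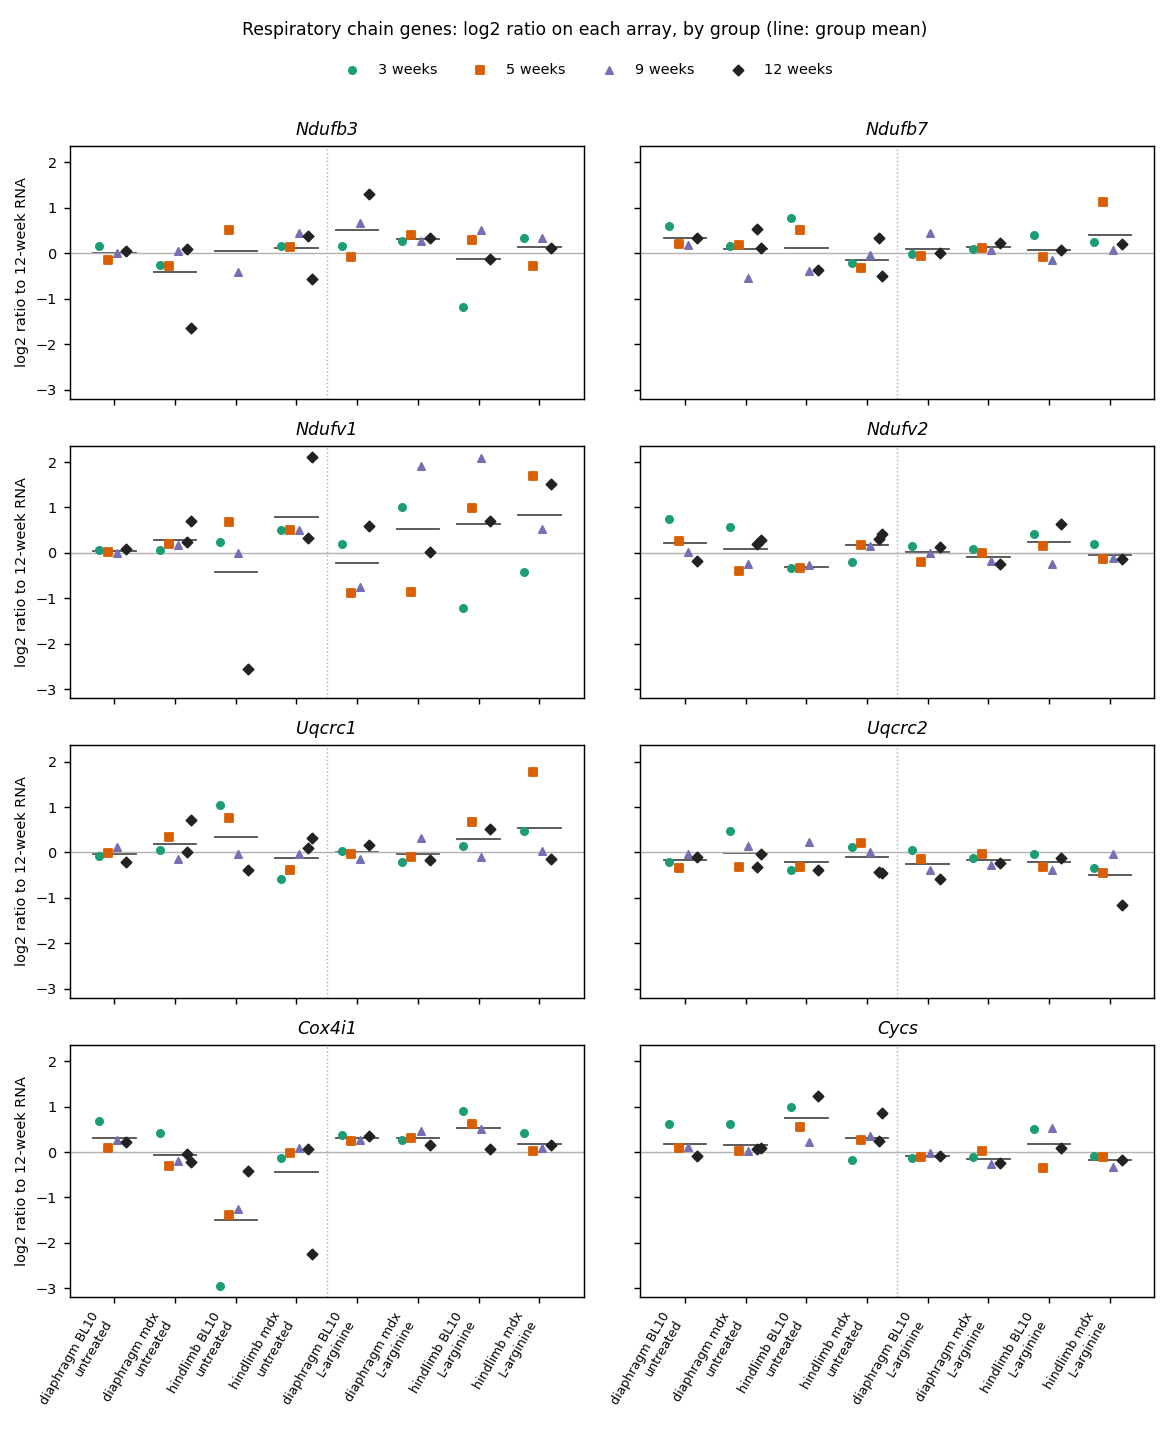
Log2 ratio to the 12-week RNA of each of the 8 genes on every array, by group (x axis), with ages as symbols and the mean of a group as a line; the dotted line parts the untreated from the L-arginine table. Most points lie near 0, while Cox4i1 in untreated BL10 hindlimb lies below 0 on all 4 arrays and Ndufv1 scatters widely.

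Cox4i1, a nuclear subunit of cytochrome c oxidase through which ATP regulates the enzyme, gave the one difference that passed the test. In untreated BL10 hindlimb its deposited ratio was 0.13 at 3 weeks, 0.38 at 5, 0.42 at 9 and 0.75 at 12, below 1 on all 4 arrays. In L-arginine BL10 hindlimb it was 1.88, 1.54, 1.42 and 1.04 at the same ages, above 1 on all 4. The groups did not overlap. The gap was widest at 3 weeks, at 14.5-fold between single arrays, and narrowest at 12 weeks, at 1.39-fold. The share of all genes whose groups lay apart in this way is not given, here or in the comparisons below. In this comparison 71% of the 632 genes had a difference above 0.

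The mean log2 ratio of Cox4i1 was -1.501 ± 1.05 (SD, n = 4) in untreated and 0.52 ± 0.36 (SD, n = 4) in L-arginine BL10 hindlimb. The difference, L-arginine minus untreated, was 2.03 ± 0.41 (SE; 95% interval 1.19 to 2.86), or a 4.07-fold higher ratio with L-arginine (limma, adjusted p = 0.00531 over 632 genes). With the ratio turned on all arrays it would be 4.07-fold lower. If it were turned in only 1 of the tables, the size of the difference would change too. The test called 31 of the 632 genes in this comparison (4.91%), 25 higher and 6 lower, and Cox4i1 was 1 of 8 respiratory chain genes called. At an unadjusted p under 0.05 limma counted 3 of the 8 (Cox4i1, Cycs and Ndufv2) and 20.1% of all genes. With each array centred on its median the calls were 6 higher and 5 lower, the median difference of all genes moved from 0.24 to 0.09, and that of Cox4i1 was 1.86. When the spread was estimated from these 2 groups alone the same difference had an adjusted p of 0.396 and was not called; over all 48 alternatives the adjusted p ran from 0.000224 to 0.396.

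On the untreated BL10 hindlimb arrays of 5 and 9 weeks, which had 2 and 0 values of 0 or below, the Cox4i1 ratio stood at the 0.50 and 0.13 percentile of the 1200 probes. On the 3-week array it stood at the 22.4 percentile, with 225 values of 0 or below it, and on the 12-week array at the 46.8 percentile, where its ratio was 0.96 times the array median. Relative to the array median its ratio was 0.178 at 3 weeks, 0.38 at 5 and 0.416 at 9, so it lay well below the median at these 3 ages and near it at 12. Without the 3 arrays with over 100 values of 0 or below, the difference was 1.86 (adjusted p = 0.0267, limma).

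**Figure D2:**
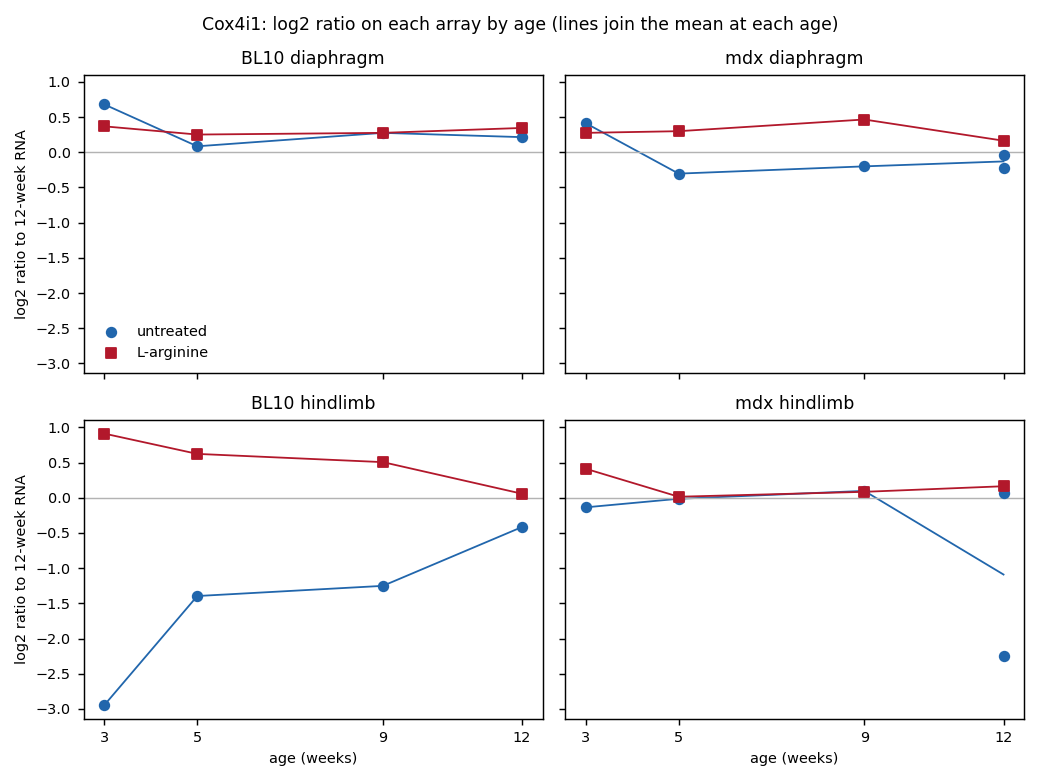
Log2 ratio of Cox4i1 to the 12-week RNA (y axis) against age in weeks (x axis) in each tissue and strain, untreated in blue and L-arginine in red; lines join the mean at each age. In BL10 hindlimb the red points lie above the blue ones at all 4 ages and approach them at 12 weeks; in mdx hindlimb the point at -2.25 is Sample 2 of 12 weeks.

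In the other 3 settings the Cox4i1 groups overlapped. The deposited ratio in BL10 diaphragm was 1.60, 1.06, 1.21 and 1.16 untreated and 1.29, 1.19, 1.21 and 1.27 with L-arginine, in the order of age. In mdx diaphragm it was 1.33, 0.81 and 0.87 at 3, 5 and 9 weeks untreated, with 0.97 (Sample 1) and 0.86 (Sample 2) at 12, against 1.21, 1.23, 1.38 and 1.12 with L-arginine. In mdx hindlimb it was 0.91, 0.99 and 1.07, then 1.05 (Sample 1) and 0.21 (Sample 2) untreated, against 1.33, 1.01, 1.06 and 1.12 with L-arginine.

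The log2 differences of Cox4i1 between the tables were 0.00 (95% interval -0.84 to 0.84) in BL10 diaphragm, 0.35 (-0.45 to 1.15) in mdx diaphragm and 0.59 (-0.20 to 1.39) in mdx hindlimb. The difference in BL10 hindlimb was not set against these one by one; the tests run average over strains or over tissues, and neither passed. The table difference was 1.14 larger in hindlimb than in diaphragm, averaged over strains (limma, adjusted p = 0.136), and 0.54 smaller in mdx than in BL10, averaged over tissues (limma, adjusted p = 0.693). Among the members 0 passed in either of these comparisons, where 1.11% and 0% of the genes were called; at an unadjusted p under 0.05, limma counted 1 and 0 members, and 18.4% and 9.18% of genes.

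Within the untreated table Cox4i1 was also low in BL10 hindlimb next to BL10 diaphragm, where the ratios of the 4 arrays in each did not overlap. The log2 difference, hindlimb minus diaphragm, was -1.81 ± 0.54 (SE; limma, adjusted p = 0.399), which did not pass. The comparison shares the untreated BL10 hindlimb arrays with the table difference. On the L-arginine arrays of all groups Cox4i1 was above 1 on 16 of 16, from 1.01 to 1.88, and above the median of its array on 14. Of the 574 genes with a value on every L-arginine array, 13 (2.26%) were above 1 on all of them. On untreated arrays it was above 1 on 7 of 18, from 0.13 to 1.60.

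Cycs, the soluble carrier between complexes III and IV and a trigger of apoptosis when released from mitochondria, had the opposite sides of 1. Its deposited ratio was above 1 on 16 of 18 untreated arrays, from 0.89 to 2.34. Of the 637 genes, Cycs itself was the only 1 above 1 on at least 16 untreated arrays. On L-arginine arrays it was above 1 on 4 of 16, from 0.78 to 1.44. Relative to the median of its array it was higher on 13 of 18 untreated and 4 of 16 L-arginine arrays. These counts of arrays were chosen for display after the values were seen.

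The highest Cycs ratios were in untreated BL10 hindlimb, at 2.00, 1.47, 1.16 and 2.34 for 3, 5, 9 and 12 weeks. With L-arginine they were 1.41, 0.78, 1.44 and 1.06. The untreated arrays of 3 and 12 weeks, which gave 2.00 and 2.34, had 225 and 128 values of 0 or below. The groups overlapped, since the L-arginine arrays of 3 and 9 weeks lay above the untreated array of 9 weeks. In untreated mdx hindlimb the ratios were 0.89, 1.20, 1.28, 1.19 (Sample 1) and 1.82 (Sample 2), against 0.94, 0.92, 0.79 and 0.88 with L-arginine. Here the untreated array of 3 weeks lay among the L-arginine arrays and the other 4 above them. In diaphragm Cycs lay within 0.91 to 1.08 on all arrays of BL10 but the untreated one at 3 weeks, with 1.53. In mdx diaphragm it lay within 0.83 to 1.07 on all but the untreated one at 3 weeks, with 1.54.

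The log2 differences of Cycs, L-arginine minus untreated, were -0.27 in BL10 diaphragm, -0.31 in mdx diaphragm, -0.56 ± 0.23 (SE) in BL10 hindlimb and -0.49 ± 0.22 (SE) in mdx hindlimb. All 4 kept their sign under the 4 other scalings of the arrays, and 0 of the 4 passed the test (limma, adjusted p = 0.852, 0.619, 0.148 and 0.226), while both hindlimb values had an unadjusted p under 0.05. The 4 values do not stand for independent tables.

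**Figure D3:**
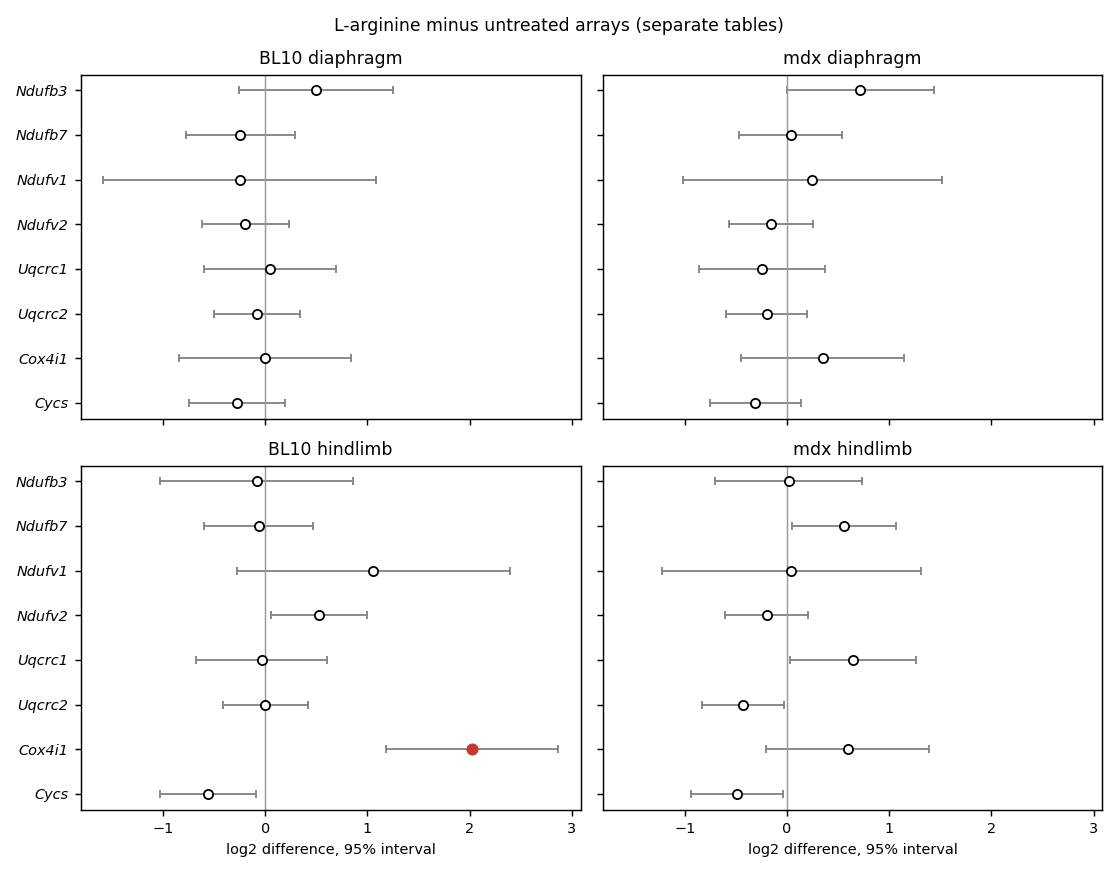
Log2 difference, L-arginine minus untreated, of each of the 8 genes in the 4 combinations of tissue and strain (x axis), with 95% intervals from limma; the filled red point is the one that passed at an adjusted p of 0.05. Cox4i1 in BL10 hindlimb stands at 2.03, and the Cycs points lie below 0 in all 4 panels with intervals that reach 0 in both diaphragm panels.

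The core proteins of complex III, Uqcrc1 and Uqcrc2, are related to mitochondrial processing peptidases and hold the complex together on the matrix side. Uqcrc2 was among the steadiest genes of the untreated table: its log2 ratios had an SD of 0.27, at the 5.50 percentile of 637 genes, and every untreated array lay within 1.5-fold of 1. It was below 1 on 12 of 18 untreated and 15 of 16 L-arginine arrays. Among the L-arginine arrays, 10 of 633 genes were below 1 on at least 15 arrays. The lowest Uqcrc2 ratio was 0.45, in L-arginine mdx hindlimb at 12 weeks, where the other 3 arrays gave 0.79, 0.73 and 0.98 at 3, 5 and 9 weeks.

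In untreated mdx hindlimb Uqcrc2 gave 1.09, 1.16 and 1.01 at 3, 5 and 9 weeks, with 0.74 (Sample 1) and 0.73 (Sample 2) at 12. The groups overlapped, and the log2 difference between the tables was -0.43 ± 0.19 (SE; limma, adjusted p = 0.226). Uqcrc1 in the same muscle went the other way. Its ratios were 0.67, 0.77, 0.97, 1.07 (Sample 1) and 1.25 (Sample 2) untreated and 1.38, 3.43, 1.03 and 0.91 with L-arginine. The value of 3.43 at 5 weeks was the highest of Uqcrc1 on any array, and the log2 difference was 0.65 ± 0.30 (SE; limma, adjusted p = 0.232), which did not pass.

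Of the complex I genes, Ndufb7 is an accessory subunit on the side of the intermembrane space. Its ratio was 2.20 on the L-arginine mdx hindlimb array of 5 weeks, the array where Uqcrc1 was also highest, and 1.18, 1.05 and 1.15 at 3, 9 and 12 weeks. Untreated mdx hindlimb gave 0.86, 0.80, 0.97, 1.27 (Sample 1) and 0.71 (Sample 2), so the groups overlapped only through Sample 1. The log2 difference was 0.56 ± 0.25 (SE; limma, adjusted p = 0.226). That 5-week array had the highest median of all, at 1.22, and with every array centred on its median the differences of Ndufb7 and Uqcrc1 kept their sign. In the mdx hindlimb comparison as a whole limma called 0 of 8 members and 3.01% of all genes, while 4 members, and 18.5% of genes, had an unadjusted p under 0.05: Ndufb7, Uqcrc1, Uqcrc2 and Cycs, with differences above 0 for the former pair and below 0 for the latter pair.

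Ndufv2 carries an iron-sulphur cluster next to the flavin of Ndufv1. In BL10 hindlimb its ratios were 0.79, 0.80 and 0.83 at 3, 5 and 9 weeks untreated, with the value at 12 weeks below 0 and left out, and 1.34, 1.11, 0.84 and 1.55 with L-arginine. The 3 untreated values lay below all 4 L-arginine values, though closely at 9 weeks, and the log2 difference of 0.53 ± 0.23 (SE, n = 3 and 4) did not pass (limma, adjusted p = 0.179). Over all arrays Ndufv2 was narrow in spread, from 0.76 to 1.67 untreated and 0.84 to 1.55 with L-arginine.

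Ndufb3 is another accessory subunit, of the membrane arm. In L-arginine mdx diaphragm it stayed between 1.20 and 1.32 on all 4 arrays, while untreated mdx diaphragm gave 0.84, 0.83, 1.03, 1.07 (Sample 1) and 0.32 (Sample 2). The groups did not overlap. The log2 difference was 0.72 ± 0.35 (SE; limma, adjusted p = 0.408) and did not pass; limma called 0 members and 0.633% of genes in mdx diaphragm, with Ndufb3 the 1 member at an unadjusted p under 0.05, as had 12.2% of genes. In BL10 diaphragm it called 0 members and 0% of genes, with 0 members and 7.75% of genes at an unadjusted p under 0.05. In BL10 hindlimb the Ndufb3 ratio was -5.20 at 3 weeks and -0.55 at 12 weeks, which leaves 1.42 and 0.75 as the 2 untreated values against 0.44, 1.23, 1.43 and 0.92 with L-arginine.

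Ndufv1, the flavoprotein where NADH is oxidised, was the least certain member, because its 2 probes disagreed. The first probe ran from 0.17 to 7.21 untreated and 0.75 to 3.76 with L-arginine. The second ran from -1.45 to 2.58 untreated and from -0.36 to 14.36 with L-arginine, with 1 and 5 arrays at 0 or below. The probes lay on opposite sides of 1 on 9 of the 17 untreated and 4 of the 11 L-arginine arrays where both were positive, and over 2-fold apart on 4 and 7. Averaged over the probes, the SD of its log2 ratio was 0.85 untreated and 1.06 with L-arginine, at the 85.4 and 94.0 percentile of all genes. Its table difference in BL10 hindlimb was 1.06 (95% interval -0.27 to 2.39; limma, adjusted p = 0.361), wide enough to hold both no change and a change like that of Cox4i1.

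Neither strain, tissue nor age gave a call among the 8 genes. For mdx minus BL10, limma called 0 members in untreated diaphragm, untreated hindlimb, L-arginine diaphragm and L-arginine hindlimb, where it called 0%, 0.0986%, 0% and 0.393% of all features. At an unadjusted p under 0.05 it counted 0, 1, 0 and 1 members, and 9.37%, 11.5%, 2.65% and 17.4% of features. These were Ndufv1 in untreated hindlimb, with a log2 difference of 1.24 ± 0.53 (SE; adjusted p = 0.418), and Cox4i1 in L-arginine hindlimb, with -0.36 ± 0.16 (SE; adjusted p = 0.283). Cox4i1 in untreated hindlimb stood at 1.07 (95% interval -0.02 to 2.16), the opposite sign to the L-arginine table, and neither value passed. Of the 32 strain differences of the members, 21 had a 95% interval within 1 log2 unit on either side of 0. The other 11 left room for a 2-fold change in the ratio. Both channels of an array carry the same strain label, so a strain difference common to both channels cancels in the ratio. These comparisons could not show such a difference.

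**Figure D4:**
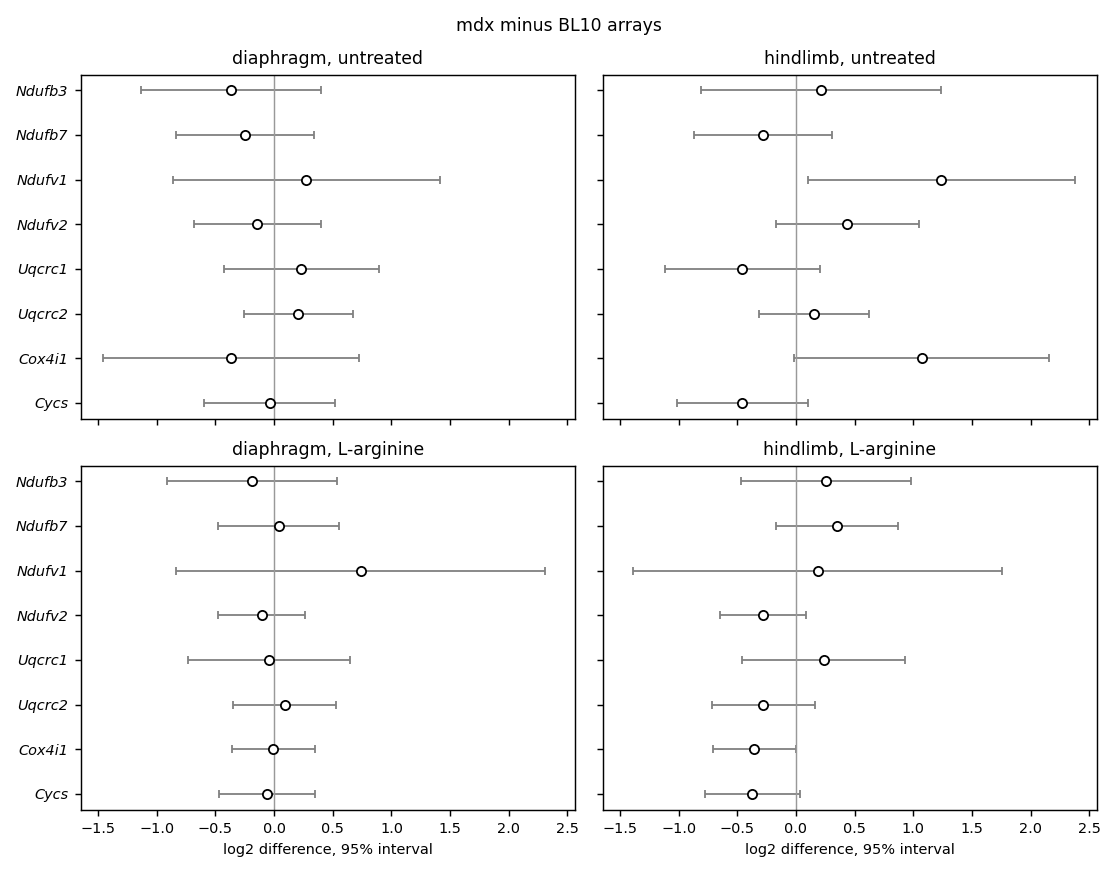
Log2 difference, mdx minus BL10, of each of the 8 genes in each tissue and table (x axis), with 95% intervals from limma; open points did not pass. All 32 points are open, and Ndufv1 has the widest interval in all 4 panels.

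For hindlimb minus diaphragm limma called 0 members in untreated BL10, untreated mdx, L-arginine BL10 and L-arginine mdx, where 0.0986%, 0%, 0% and 0.393% of features were called. At an unadjusted p under 0.05 stood 1 member, Cox4i1 in untreated BL10 as given above, and 0 in the other 3, beside 10.1%, 4.14%, 12.4% and 23.5% of features in the same order. Of these 32 tissue differences 19 had an interval within 1 log2 unit of 0. If the 12-week RNA came from the same muscle as the sample, a tissue difference common to both channels cancels in the ratio. In that case these comparisons could not show it. For 3, 5 and 9 weeks against 12 weeks, averaged over the groups of a table, limma called 0 members and 0% of features in all 6 comparisons. At an unadjusted p under 0.05 were 0 members in each, beside 8.09%, 2.86% and 2.56% of features in the untreated and 5.3%, 9.32% and 2.65% in the L-arginine table. In the untreated table at 3 weeks all 8 differences from 12 weeks were above 0, from 0.00 to 0.34, where 47.4% of all features were above 0, but with each array centred 6 of the 8 were. The strain differences were not shown to differ between the tissues: limma called 0 members and 0% of features in either table, with 0 members at an unadjusted p under 0.05 beside 4.44% of features in the untreated and 6.38% in the L-arginine table.

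The members differed among themselves in direction. In BL10 hindlimb the median difference between the tables over the 8 genes was -0.02, with 4 above 0, beside a median of 0.24 over all genes; in mdx hindlimb it was 0.03, with 5 above 0, beside 0.22. Over all 22 comparisons 12 of 176 member tests (6.82%) had an unadjusted p under 0.05, against 9.43% of all tests. Among the 28 pairs of members the Pearson correlation of log2 ratios ran from -0.61 to 0.53 over the 18 untreated arrays (median 0.02) and from -0.44 to 0.66 over the 16 L-arginine arrays (median -0.11), given as a description; 7 pairs were above 0 in both tables. Ndufb7 with Uqcrc1 was at 0.53 and 0.66, and Cox4i1 with Cycs at -0.51 and 0.47. All pairs were read on the same arrays, and arrays of a strain may share a 12-week reference.

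Few other genes of oxidative metabolism had a single-symbol probe that could be tested. Of the 34 other complex I, 4 complex II, 7 other complex III and 15 other complex IV subunits and 14 assembly factors listed, 0 were measured. In the table difference of BL10 hindlimb, where Cox4i1 was called, 3 of 31 ATP synthase subunits were measured and all 3 were above 0 with 0 calls (median log2 difference 0.47; 2 at an unadjusted p under 0.05 by limma). Of 18 citrate cycle enzymes 4 were measured, all 4 above 0, and 1 was called: Idh3a, a subunit of the NAD-dependent isocitrate dehydrogenase, at 0.77 ± 0.22 (SE; limma, adjusted p = 0.0445); 2 had an unadjusted p under 0.05. Idh3a was not called with arrays centred (0.60; limma, adjusted p = 0.146) or under the other 3 scalings. Of 11 mitochondrial carriers and pores 4 were measured, 3 above 0, with 0 called and 0 at an unadjusted p under 0.05 by limma. Of 16 transcriptional regulators only Gabpa, a subunit of GABP, was measured, at 0.70 ± 0.46 (SE; limma, adjusted p = 0.408). Over all genes of this comparison the median was 0.24, 71% were above 0, 4.91% were called and 20.1% had an unadjusted p under 0.05.

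Some markers of muscle fibres and of connective tissue were called in the same comparison, in which 71% of all genes were above 0 and 4.91% were called. Of 12 fast-fibre markers 9 were measured, 7 of them above 0 and 2 called: Mylpf, the fast regulatory light chain, at 1.89 and Tnni2, fast troponin I, at 1.17 (limma, adjusted p = 0.0445 and 0.0205). Of 8 slow-fibre markers 3 were measured, all above 0, with the slow tropomyosin gene Tpm3 called at 1.16 (limma, adjusted p = 0.0159). Of 12 fibroblast and matrix markers 4 were measured, all above 0, with Fmod (fibromodulin) called at 1.77 and Col1a2 (a type I collagen chain) at 1.00 (limma, adjusted p = 0.000982 and 0.0493). With arrays centred on their medians Fmod and Tpm3 kept the call, and Mylpf, Tnni2 and Col1a2 did not (limma, adjusted p = 0.0842, 0.0576 and 0.121). Of 12 macrophage markers 3 were measured, 1 above 0 with 0 calls and 0 at an unadjusted p under 0.05 by limma, and of 7 blood cell and 6 adipocyte markers 0 were measured. The median log2 ratio over the measured genes of the fast-fibre list ran from -0.68 to 0.12 on the 4 untreated and from -0.08 to 0.07 on the 4 L-arginine arrays. That of the slow-fibre list ran from -1.08 to 0.01 and from -0.36 to 0.62, and that of the fibroblast list from -0.47 to 0.10 and from 0.54 to 1.18. The part of these markers in the Cox4i1 result was not tested.

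The pair of untreated mdx arrays labelled Sample 1 and Sample 2 at 12 weeks shows how far arrays of the same label can lie apart. In hindlimb Cox4i1 was 1.05 and 0.21, a 5.0-fold gap, and the first Ndufv1 probe 1.14 and 7.21. In diaphragm Ndufb3 was 1.07 and 0.32, and the first Ndufv1 probe 1.25 and 5.71. Of the 9 member probes 2 in hindlimb and 3 in diaphragm differed by over 2-fold, as did 20.2% and 19.3% of all probes. The 12-week arrays, with 12 weeks in both channel labels, were not closer to 1 in the untreated table: the median size of the members' log2 ratios was 0.32 at 12 weeks and 0.23 at the other ages, against 0.18 and 0.27 in the L-arginine table.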

How the data were processed

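The 34 arrays measured total RNA on 2 channels. Each deposited value was read, from the values themselves, as a linear ratio of an array's channels, as the authors deposited it: array medians are close to 1, and zero and negative values occur. The sources used here give no scanner, dyes, background correction, normalisation, scaling, centring or direction. The number of arrays limits the precision. Positive ratios were turned into log2, values of 0 or below became missing, and probes of 1 symbol were averaged per gene; other probes stayed features of their own. Of 1200 probes per table, 812 had 1 symbol, 99 several and 289 none in the platform annotation. No further normalisation was made.

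Features positive on 75% or more of the arrays were tested by lmFit and eBayes (limma 3.58.1 under R 4.3.3; Benjamini-Hochberg adjustment over all features, threshold 0.05), with group and age as terms and all arrays of a table sharing the spread: 1014 untreated and 1019 L-arginine features. L-arginine and untreated arrays were compared over the 632 genes of both tables. Contrasts of features with missing values were computed exactly for each feature; limma's own contrasts.fit was an added alternative. The fit was tested on simulated data. Intervals are 95%.

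Alternatives were the scaling of arrays, a running median over 51 neighbouring probes, the treatment of values of 0 or below, the filter, the median over probes, single probes, no age term, only the groups compared, and leaving out the array with mdx channel labels, the 12-week arrays or each array in turn. Leaving out the 3 arrays with over 100 values of 0 or below, and the Sample number as a block, were chosen after seeing the data. Members, gene lists and tests were chosen with earlier results of these data known. Named are all 8 members, called genes of the lists, and the 5 genes most correlated with the members' mean in both tables. Promoters come from RefSeq (GRCm38.p6), matched by symbol for 6 of 8 members. Summaries and figures were made with Python 3.11.15, pandas 2.3.3 and matplotlib 3.10.9.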

Additional observations from a re-analysis of the deposited data

Results flagged for a closer look

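Each member's log2 ratios were searched within each group of 4 or 5 arrays for an array far from the others. Of 62 groups of values 8 held one. Chance gives about 1 in 20 where the values are independent replicates. Here the arrays of a group differ in age and the genes share arrays, so 8 of 62 cannot be judged against that rate. The lowest were Cox4i1 on Sample 2 of untreated mdx hindlimb, at -2.25 with the nearest array at -0.14, and Ndufb3 on Sample 2 of untreated mdx diaphragm, at -1.64 with the nearest at -0.27. The highest were Ndufv1 on Sample 2 of untreated mdx hindlimb, at 2.11 with the nearest at 0.51, and Ndufb7 at 5 weeks in L-arginine mdx hindlimb, at 1.14 with the nearest at 0.24. The others were Cycs at 3 weeks in untreated mdx diaphragm (0.62), Ndufb7 at 9 weeks in L-arginine BL10 diaphragm (0.44), Uqcrc2 at 9 weeks in untreated BL10 hindlimb (0.23) and Ndufv2 at 3 weeks in L-arginine mdx hindlimb (0.20). The arrays labelled Sample 2 gave 3 of the 8.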

How the results depend on the processing

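The Cox4i1 difference between the tables in BL10 hindlimb kept its call in 47 of 48 alternatives and its direction in all 48, with log2 differences from 1.46 to 2.54. Many of these alternatives kept the Cox4i1 values of the compared groups as they were, for example by leaving out an array of another group. Such runs could change the adjusted p but not the difference of 2.03 or its direction. Leaving out the array with mdx channel labels is also 1 of the runs that left out each array in turn. The call was lost with only the groups compared, where the value of 2.03 had an adjusted p of 0.396 (limma) and 0 members were called in BL10 hindlimb. Leaving out 1 array at a time gave 1.46 (without untreated BL10 hindlimb at 3 weeks) to 2.47, with 1 to 2 members called in BL10 hindlimb; the second was Cycs without the untreated array of 9 weeks, at -0.74 (adjusted p = 0.0489). With values of 0 or below set to the lowest positive value of the array, 2 members were called in BL10 hindlimb, and Ndufb3 reversed from -0.08 to 2.93 (adjusted p = 0.0369), a direct effect of the filled-in values at 3 and 12 weeks. The count of all genes called there ran from 0 to 79 beside 31. Higher and lower calls were 25 and 6, but 6 and 5 with arrays centred, 4 and 5 with arrays centred and scaled, 9 and 6 after quantile normalisation and 7 and 6 with the print-order trend removed. In the other 21 comparisons 0 members were called under any alternative run. Of 5948 member values under alternatives 312 changed sign, all of differences that were not called, and 88 of 176 differences never did. Fitting each probe on its own was not run between the tables, since no probe-to-probe match of the platforms is stated. Untreated mdx diaphragm and hindlimb share the label numbers Sample 1 and Sample 2 at 12 weeks. Sample 2 minus Sample 1 correlated at 0.28 between the tissues over 1172 probes (Pearson), and the labels do not say what the number stands for. With the Sample number as a replicate block, added after seeing the data, hindlimb minus diaphragm in untreated mdx gave 0 calls among members and among all 1014 features, as without the block, and 1 member at an unadjusted p under 0.05 (limma; smallest adjusted p of a member 0.954), with 0 changes of sign.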

Other observations

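The mean log2 ratio of the 8 members over arrays was set against every other gene with values enough in both tables (624 genes). The 5 genes with the highest value for the lower of their Pearson correlations in the untreated (18 arrays) and L-arginine (16 arrays) tables were Adgre5 and Cd37, surface proteins of leukocytes (0.66 each), Stard3nl, a protein of late endosomes (0.62), Gapdh, the glycolytic dehydrogenase (0.57), and Fosb, an AP-1 transcription factor subunit (0.54). These correlations are a description, and the arrays may share references. The genes with the widest spread (Cox4i1 and Ndufv1 untreated, Ndufv1 with L-arginine) weigh most in the mean.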
